A study of Mus musculus with 4 samples.

Results

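The genes of translation initiation factors (eIF) and elongation factors (eEF) were described in 4 RNA-seq libraries of mouse cells. Members were taken by name. A symbol that begins with Eif and a digit, or with Eef1 or Eef2, was kept, and names with a dash or with ps and genes of chromosome Y were left out. This found 67 of the 50600 genes in the tables and left out 8 symbols. Of the 67 members 66 are protein-coding, and Eif2c5 is annotated as a long non-coding RNA. Each member was set beside the gene that overlaps it on the opposite DNA strand.

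All 4 libraries belong to 1 group, biological replicates 1 to 4 of primary cells from strain C57BL/6NJ. The labels call them T-helper 2 (Th2) cells, a kind of CD4 T cell, and give no treatment, time or genetic change. In the headers of the tables they carry the name of a Th1/Th2 time course at 0 hours. The replicates share 1 donor identifier, and separate mice are not stated, so p-values measure only the spread between these samples, which may be technical. The labels name the assay as total RNA-seq and link a library protocol named for poly(A) RNA.

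The libraries held 1452053 to 2351916 counts, and a count of 0 allows up to 1.28 to 2.07 CPM, a scale on which each library has the same total, for counting error only. Genes that share exon bases with an opposite-strand gene held 87.6 to 89.6% of all counts. Protein-coding genes without such overlap held 9.45% on average. A count here is the number of fragments that strand-specific counting assigned to a gene. The words detected, level and fold below refer to these counts, which need not be that gene's transcript level. The strand that these libraries keep is not given in the sources used here. If it is the opposite of the one counted, the counts given to a gene come from transcripts of the opposite strand, so every level and pair direction below holds for the strand as counted. The T cell receptor complex gene Cd3e had 51, 97, 43 and 34 counts in replicates 1 to 4, against 6532, 6058, 5290 and 3960 counts of Gm48719, an antisense gene nested in it. The Th2 factor gene Gata3 had 25, 42, 20 and 31 counts, against 429, 313, 275 and 239 of its nested antisense gene Gm13256. In both the opposite gene was higher in all 4 libraries. The ribosomal RNA locus CT010467.1 took 3.47 to 16.8% of a library. Of the T cell markers 10 of 10 reached 1 TPM, a level per exon length, at 8.18 to 66.0 TPM. Of the Th2 markers 3 of 8 did, with Il5 and Il13 at 0 counts. Those 3 were Ptgdr2, Il4 and Gata3, at 9.97, 7.96 and 5.87 TPM. Ptgdr2, like Gata3, shares exon bases with an opposite-strand gene. Over all protein-coding genes 34.0% reached 1 TPM. Of markers of other cell types, 0 of 3 of Th1 cells, 2 of 6 of B cells, 3 of 6 of myeloid cells, 1 of 4 of NK and CD8 cells and 1 of 3 of erythroid cells reached it. Those that reached it were Cd79a and Ighm of B cells, at 39.0 and 22.7 TPM, Csf1r, Tyrobp and Cd68 of myeloid cells, at 107, 14.1 and 4.60 TPM, Cd8b1 at 1.34 TPM and Alas2 of erythroid cells at 12.1 TPM. Of these Csf1r and Alas2 share exon bases with an opposite-strand gene. Markers with 0 counts included Tbx21, Ifng, Ms4a1, Lyz2, Adgre1, Ncr1 and Hba-a1. The part of other cells in the results below was not tested.

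Translation starts when eIF2 brings the initiator tRNA to the small ribosomal subunit, with eIF1, eIF1A, eIF3 and eIF5, and when the eIF4 factors load that complex on a capped mRNA. eIF5B joins the large subunit, and eIF2B recharges eIF2 with GTP, a step that kinases of eIF2 alpha shut down under stress. In elongation eEF1A brings aminoacyl-tRNAs and eEF2 moves the ribosome. Resting T cells hold translation low and raise it on activation, and many of these mRNAs carry a terminal oligopyrimidine tract that couples them to mTOR.

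Promoters of 51 members were matched by symbol to RefSeq (GRCm38.p6), as 300 bases, 250 before and 50 after the annotated start. Members that start head to head with an opposite gene are shown first, because both genes then start in the same region. Capitals mark CCGGAAG, the core letters bound by ETS factors.
Eef1b2: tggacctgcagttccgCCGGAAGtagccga
Eif2b4: cgggacccagtgcacgCCGGAAGttgtagt
Eif1b: tgcacCCGGAAGcgcctccgcccggcgcct
The Eef1b2 stretch is chr1:63176816-63176845 on the plus strand, the Eif2b4 stretch chr5:31193125-31193154 on the minus strand, and the Eif1b stretch chr9:120492451-120492480 on the plus strand. The RefSeq start of Eif2b4 lies 291 bases and that of Eif1b 374 bases from the outermost start in the annotation used for counting.

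CCGGAAG, searched on both strands, was in 15 of the 51 member promoters (29.4%), against 12.3% of 16469 protein-coding promoters. Of the 8 members with a head to head overlap, 6 had a promoter entry and 3 of these held it. The GC box letters GGGCGG were in 36 member promoters (70.6%), against 48.1% of protein-coding promoters. The TATA box letters TATAAA were in 4 (7.84%, against 12.8%) and CCAAT in 14 (27.5%, against 38.7%). These shares are descriptions, and a match is not a bound site. The elongation factor promoters are shown because Eef1a1 and Eef2 led the members without exon overlap, with TATAAA in capitals for Eef2 and CCGCCC, the GC box read on the other strand, for Eef1a1.
Eef2: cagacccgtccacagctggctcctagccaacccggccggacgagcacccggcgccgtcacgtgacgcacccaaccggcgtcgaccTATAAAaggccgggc
Eef1a1: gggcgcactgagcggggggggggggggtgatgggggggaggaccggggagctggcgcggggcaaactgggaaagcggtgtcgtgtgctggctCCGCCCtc
Both end at the base before the start, at chr10:81176531-81176630 on the plus strand and chr9:78481725-78481824 on the minus strand. The RefSeq start of Eef1a1 lies 7427 bases from the outermost start in the annotation used for counting, and that of Eef2 is the same base in both. The letters GAAA, then 2 bases of any kind, then GAAA, an interferon response element, were in 4 member promoters (7.84%, against 3.47%). One of these was that of Eif2ak2, the interferon-induced kinase PKR, where capitals mark the match in the stretch chr17:78882543-78882572 on the minus strand.
Eif2ak2: gaaggcggagtccgccggGAAAACGAAAca

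Most translation factor genes had counts. TPM is the count per kb of exon, scaled to the same sum in each library. With a mean TPM of at least 1, 52 of 67 members were detected (77.6%), against 7390 of 21764 protein-coding genes (34.0%). The median member had 4.90 TPM, against 0.144 TPM for the median protein-coding gene. Members together held 0.462 ± 0.0359% of the counts (SD, n = 4). No count fell in 4 members: Eef1a2, the eEF1A of muscle and neurons, Eif4e1b, an oocyte cap-binding protein, the methyltransferase gene Eef1akmt3 and Eif2c5. Eif3j2 had 1 count in all.

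The order at the top mixed core factors with genes that overlap others. Eef1a1 (ENSMUSG00000037742.14, chromosome 9, 78478449 to 78489151, mm10), which delivers aminoacyl-tRNA, had 412, 592, 468 and 439 TPM in replicates 1 to 4. Its range lay above that of every other member. Eef2kmt, the lysine methyltransferase of eEF2 (chromosome 16, 5244152 to 5255983), had 237, 231, 246 and 243 TPM. Eif2d, a factor of non-canonical initiation and ribosome recycling (ENSMUSG00000026427.16, chromosome 1, 131153181 to 131187658), had 223, 208, 258 and 191 TPM. Its range overlapped that of Eef2kmt. Eef2 (chromosome 10, 81176631 to 81182498), the translocation factor, had 74.5, 117, 100.3 and 78.5 TPM, a range that overlapped the 79.8 to 107 TPM of the eIF2B delta subunit gene Eif2b4. Eif5b, for subunit joining, had 69.7 to 79.7 TPM and Eif2ak1, the heme-regulated eIF2 alpha kinase, 53.7 to 67.8 TPM, each below its upper neighbour in all 4 libraries. Eef1b2, Eif3h and Eif5a followed at 41.2 ± 9.88, 40.5 ± 5.02 and 38.7 ± 5.94 TPM (SD, n = 4), with overlapping ranges.

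**Figure D1:**
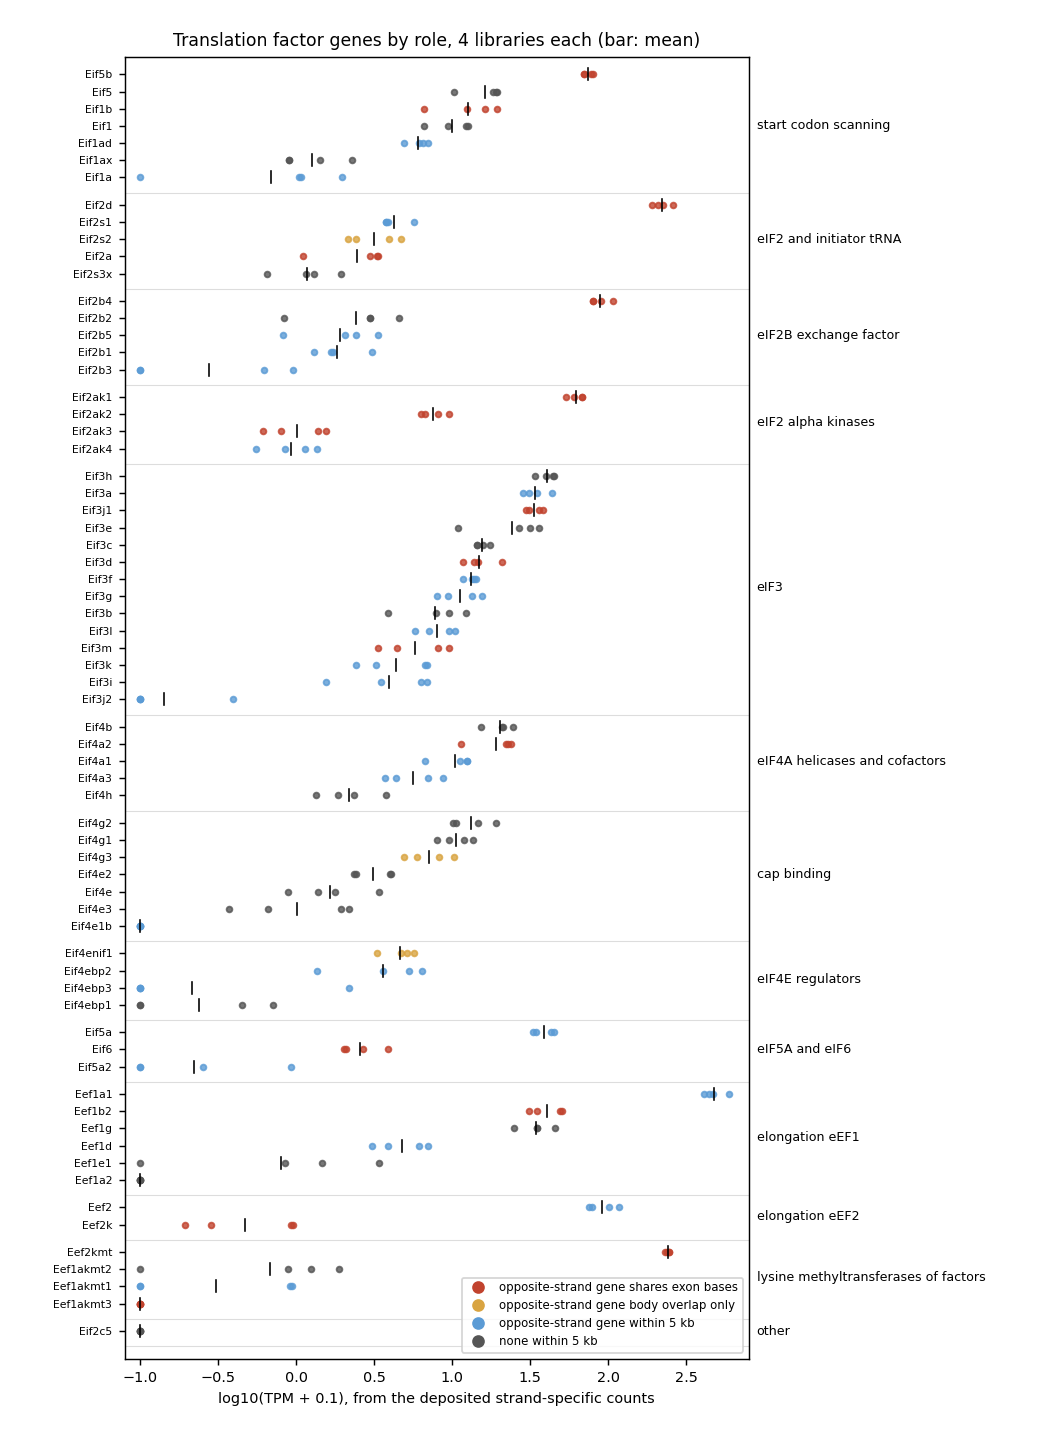
Level of each of the 67 members as log10(TPM + 0.1), 1 point per library and a bar at the mean, ordered by role and coloured by the position of the nearest opposite-strand gene. Eef1a1 stands farthest right, and Eef1a2, Eif4e1b, Eef1akmt3 and Eif2c5 lie at 0 counts. Exon bases are shared with an opposite-strand gene by 6 of the 10 highest members. Of the 7390 protein-coding genes at 1 TPM or more, 2778 share such bases.

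In the group listed for scanning and start codon choice, which includes Eif1ad, 6 of 7 members were detected. A part of each listed gene in that step was not tested. Eif5, the GTPase activator of eIF2, had 16.6 ± 4.36 TPM (SD, n = 4), Eif1b 13.5 ± 5.46, Eif1 10.1 ± 2.81, Eif1ad 5.99 ± 0.867 and Eif1ax 1.27 ± 0.652 TPM. Eif1a had 4, 4, 7 and 0 counts and missed the limit. All 5 members of the eIF2 and initiator tRNA group were detected. The eIF2 alpha and beta genes Eif2s1 and Eif2s2 had 4.17 ± 0.935 and 3.19 ± 1.21 TPM, and the gamma gene Eif2s3x had 1.16 ± 0.526 TPM. These levels lay far under the 220 ± 28.5 TPM of Eif2d. Eif2d shares exon bases with an opposite-strand gene, and Eif2s1, Eif2s2 and Eif2s3x do not. Of the eIF2B exchange factor 4 of 5 subunit genes were detected, and Eif2b4 exceeded the other 4, which had 0.343 to 2.72 TPM. Only Eif2b4 among these 5 shares exon bases with an opposite-strand gene. The part of the overlap in these differences was not tested.

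The kinases of eIF2 alpha spanned a wide range. Eif2ak1 had 62.2 ± 6.69 TPM, Eif2ak2 7.51 ± 1.47 TPM, Eif2ak3, the kinase PERK of the endoplasmic reticulum, 0.981 ± 0.452 TPM and Eif2ak4, the amino acid sensor GCN2, 0.871 ± 0.350 TPM (SD, n = 4). Eif2ak1, Eif2ak2 and Eif2ak3 share exon bases with an opposite-strand gene, and Eif2ak4 does not. The eIF3 genes, which encode the scaffold that binds the small subunit, were detected in 13 of 14 cases, with a median of 12.3 TPM over the 14. Eif3h had 44.4, 44.1, 33.6 and 39.96 TPM and Eif3a, the largest subunit, 30.7, 43.7, 34.6 and 28.4 TPM. Eif3e had 10.8 TPM in replicate 1 and 26.7 to 35.8 TPM in the other three. Eif3i and Eif3k, at 4.45 ± 2.48 and 4.69 ± 2.30 TPM, were the lowest detected eIF3 genes, and Eif3j2, with its 1 count, had 0.073 TPM.

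Cap-binding genes ran from 0 to 13.5 TPM and genes of the eIF4A helicases and their cofactors from 2.22 to 20.3 TPM. Eif4b, a cofactor of the eIF4A helicase, had 20.6, 21.1, 15.1 and 24.4 TPM. Eif4g1 and Eif4g2, scaffolds of cap-dependent and cap-independent initiation, had 10.7 ± 2.49 and 13.5 ± 4.10 TPM (SD, n = 4), while Eif4e, the cap-binding protein, had 1.75 ± 1.09 TPM. Among eIF4E regulators Eif4enif1, which carries eIF4E into the nucleus, had 4.60 ± 1.03 TPM and the binding protein gene Eif4ebp2 had 4.05 ± 2.19 TPM. Eif4ebp1 and Eif4ebp3 had 3 and 2 counts in all. Eif5a, a factor for stalled ribosomes, had 38.7 ± 5.94 TPM and Eif6, an anti-association factor, 2.56 ± 0.840 TPM.

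In the elongation group of genes named Eef1, which includes Eef1e1, 5 of the 6 were detected. Eef1g and Eef1b2, subunits of the exchange factor of eEF1A, had 34.9 ± 8.45 and 41.2 ± 9.88 TPM (SD, n = 4), and Eef1d, another subunit, had 4.90 ± 1.84 TPM. Eef2k, the kinase that inactivates eEF2, had 1, 2, 8 and 6 counts, or 0.487 ± 0.405 TPM. Of the factor methyltransferase genes Eef2kmt was the 1 detected out of 4, and Eef1akmt1 and Eef1akmt2 had 2 and 8 counts in all.

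The members listed here as terminal oligopyrimidine mRNAs were Eef1a1, Eef1b2, Eef1d, Eef1g, Eef2, Eif3e, Eif3f, Eif3h and Eif4b. All were detected, with a median of 34.9 TPM over 9 genes, against 4.11 TPM over the other 58 members. Whether other members carry such a tract was not tested, and both medians depend on the list. Without members that share exon bases with an opposite-strand gene the medians were 30.5 TPM over 8 and 2.91 TPM over 42 genes. The 9 genes ranged from 4.90 TPM for Eef1d to 478 TPM for Eef1a1. No test was made of this list.

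Exon bases were shared with an opposite-strand gene in 17 of the 67 members (25.4%), in 20 overlaps, beside 4801 of 21764 protein-coding genes (22.1%). A further 3 members overlapped a gene body without shared exon bases, 25 had an opposite-strand gene within 5 kb and 22 had none. The 17 members held 2713 ± 263 CPM and the other 50 held 1904 ± 253 CPM (SD, n = 4). Of the 17, 13 share at least 100 exon bases with an opposite gene and were paired with the one they share most with. The shared stretch ran from 100 bases, for Eef1akmt3 and Mettl1, to 1643 bases, for Eif5b and Rev1. These are bases of release 13 of the annotation, which was used for counting. Release 21 gives 2151 in place of 625 shared bases to Eif3d and Gm17638, and 428 in place of 0 to Eif1ad and Banf1.

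**Figure D2:**
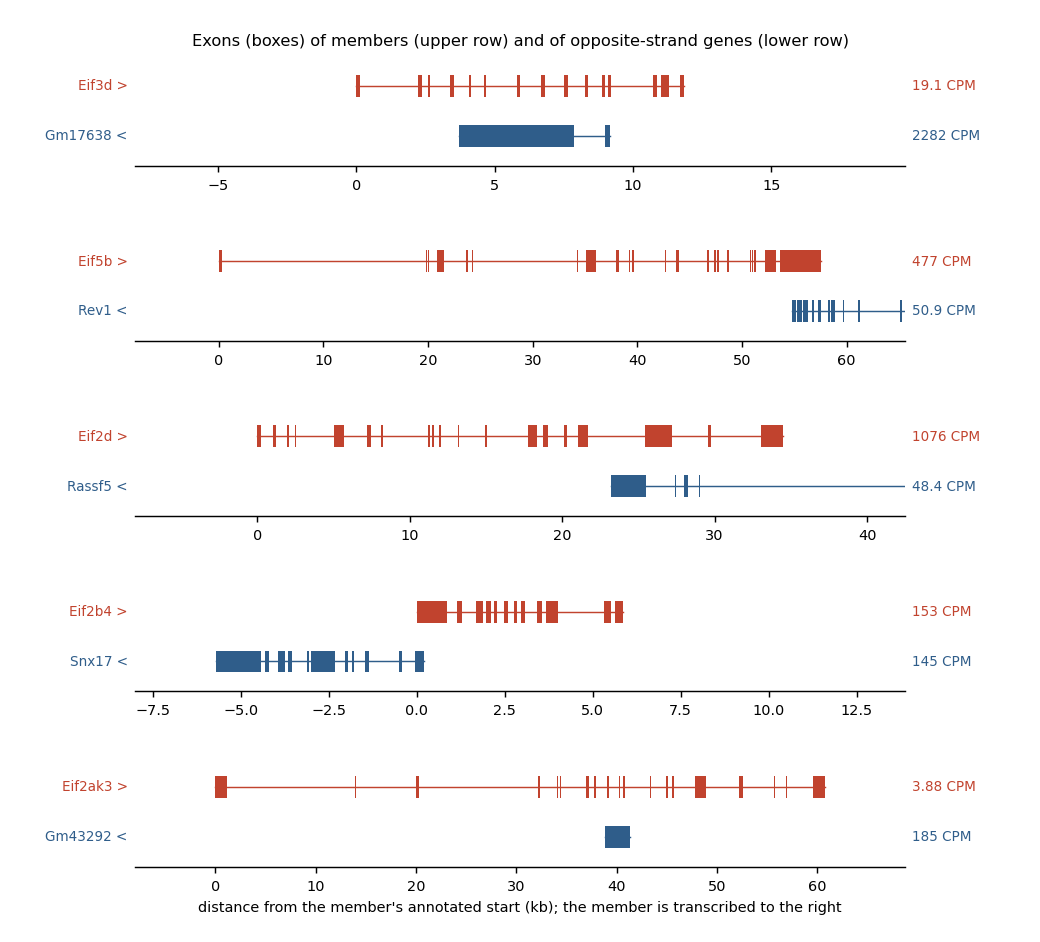
Exon maps of 5 members (upper row of each panel) and their opposite-strand genes (lower row), as distance in kb from the start of the member, with the mean CPM of each gene at the right. Gm17638 and Gm43292 lie wholly inside Eif3d and Eif2ak3, while Rev1 and Rassf5 run beyond the 3′ ends of Eif5b and Eif2d and are cut at the panel edge.

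Count density, the count per kb of exon, was compared within each pair in all 4 libraries. The fit covered all opposite-strand pairs of the tables, and 11 of the 13 member pairs had enough counts, a mean of at least 10 per library over both genes. The member was denser in 6 pairs and the opposite gene in 4, at an adjusted p under 0.05. Over all 2790 protein-coding genes with such a pair, the gene itself was denser in 29.4% and the opposite gene in 62.2%. The median log2 difference, gene over opposite gene, was 0.87 over the 11 members and -2.79 over the 2790 genes. These are descriptions of the list and say nothing particular to it.

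The calls were then counted by the kind of opposite gene. Where it was protein-coding, 5 of 6 members were denser and 0 were less dense, beside 43.7% and 45.6% of 1615 protein-coding genes with such an opposite gene. Where it was not, 1 of 5 members was denser and 4 were less dense, beside 9.79% and 85.1% of 1175 genes. By position, 5 of 5 tail to tail members tested were denser than their opposite gene, beside 36.8% denser and 55.1% less dense of 1275 protein-coding genes in that position. All 3 members with a nested opposite gene were less dense, beside 76% of 667 genes. Of the 3 head to head members tested 1 was denser, 1 less dense and 1 not called, beside 27.4% denser and 62.1% less dense of 848 genes. Position and gene type largely coincide in these few pairs and cannot be told apart.

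**Figure D3:**
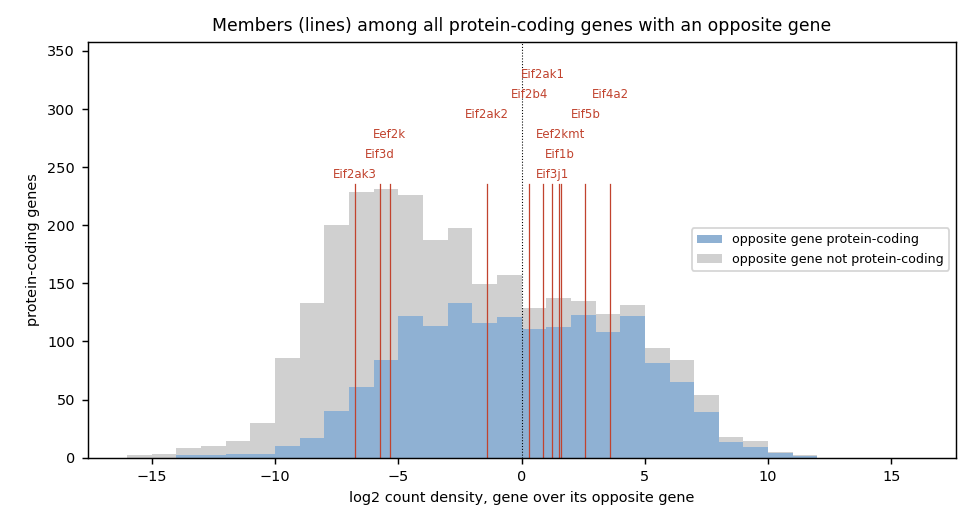
Histogram of the log2 count density of 2790 protein-coding genes over their opposite gene, split by the type of the opposite gene, with a line for each of the 11 members tested. Eif2ak3, Eif3d and Eef2k stand in the left peak of the histogram, and 7 members lie right of 0.

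Eif3d (ENSMUSG00000016554.8, chromosome 15, 77958998 to 77970824), the eIF3 subunit that can itself bind a cap, had 32, 39, 36 and 38 counts in replicates 1 to 4. Gm17638, an antisense RNA gene within it (ENSMUSG00000097057.1, chromosome 15, 77961674 to 77967126), had 5250, 4532, 4408 and 3552 counts. The counts of the gene pair did not overlap in any library. On the log2 density scale Eif3d over Gm17638 was -5.72 ± 0.33 (SD, n = 4), and the fitted value was -5.73 (edgeR quasi-likelihood, adjusted p = 9.3e-12). The annotation gives 625 exon bases to both genes, which is 32.7% of Eif3d and 14.4% of Gm17638. All 67 members together had 4617 ± 359 CPM, against 2282 ± 249 CPM for Gm17638 alone (SD, n = 4).

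Eif2ak3 and Eef2k had the same arrangement. Eif2ak3 had 11, 13, 4 and 4 counts, and Gm43292, inside it on the other strand, had 391, 330, 374 and 322 counts. The fitted log2 density of Eif2ak3 over Gm43292 was -6.77 (edgeR, adjusted p = 6.64e-10), with -6.86 ± 0.85 over the libraries (SD, n = 4). Eef2k had 1, 2, 8 and 6 counts, against 48, 43, 73 and 37 counts of Gm15774, or -5.36 in the fit (edgeR, adjusted p = 1.71e-06). Gm43292 and Gm15774 lie wholly within the bounds of their members, as Gm17638 does. Each of these 3 opposite genes was denser in all 4 libraries. Eif2ak2 starts head to head with the RNA gene Gm26637, and had 69, 47, 53 and 32 counts, against 74, 56, 55 and 51. Its fitted log2 density over Gm26637 was -1.42 (edgeR, adjusted p = 0.00189). That call rests on the exon lengths, since undivided counts gave -0.26 (adjusted p = 0.48).

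Of the 6 members called denser, 5 met a coding gene at their 3′ ends, and the sixth, Eif1b, meets an antisense gene at its start. Eif5b (chromosome 1, 37998010 to 38055579) had 979, 1114, 1014 and 652 counts, against 125, 90, 95 and 83 counts of Rev1, a translesion DNA polymerase. Eif5b was denser in each library, with a fitted log2 difference of 2.58 (edgeR, adjusted p = 2.97e-08). Of its exon bases 28.7% lie within the bounds of Rev1. Eef2kmt had 903, 909, 850 and 617 counts, against 295, 281, 314 and 209 of Alg1, a mannosyltransferase of N-glycan synthesis. The log2 density of Eef2kmt over Alg1 was 1.59 ± 0.11 (SD, n = 4), with the least spread of the pairs called (fitted 1.59, edgeR adjusted p = 8.63e-07). Eef2kmt also overlaps the antisense gene Gm15983, which had 89, 58, 47 and 76 counts.

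Eif2ak1 had 548, 505, 502 and 292 counts, against 88, 107, 84 and 31 of Aimp2, a scaffold of the tRNA synthetase complex. The fitted log2 difference was 0.87 (edgeR, adjusted p = 0.0025). A second gene opposite Eif2ak1, Ankrd61, lies wholly inside it and had 862, 715, 712 and 516 counts. Eif2ak1 was less dense than Ankrd61 in all 4 libraries, with a log2 density difference of -1.90 ± 0.15 (SD, n = 4), so which opposite gene is paired sets the direction for this member. Eif3j1, a loosely bound eIF3 subunit, had 319, 309, 224 and 172 counts, against 169, 173, 150 and 103 of Spg11, a gene of lysosome reformation (fitted log2 1.23, edgeR adjusted p = 0.000104). Eif4a2, a cap-complex helicase, had 86, 188, 158 and 112 counts, against 4, 6, 3 and 0 of Rfc4, a clamp loader subunit (fitted log2 3.60, edgeR adjusted p = 2.46e-05). Without replicate 1 the Eif4a2 value was 3.94 and without replicate 4, where Rfc4 had no count, it was 3.22.

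Eif2b4 and Eif1b also start head to head with their opposite gene. Eif2b4 (chromosome 5, 31187558 to 31193430) had 298, 308, 364 and 222 counts, against 312, 315, 295 and 212 of Snx17, an endosomal sorting nexin. The log2 density of Eif2b4 over Snx17 was 0.32 ± 0.17 (SD, n = 4), above 0 in each library, but the fit did not call it (edgeR, adjusted p = 0.13). Both genes share 204 exon bases at their outermost starts, and the CCGGAAG stretch printed above lies outside these, within Eif2b4. Eif1b had 26, 32, 18 and 7 counts, against 4, 7, 6 and 7 of the antisense gene D830035M03Rik. The fitted log2 density was 1.53 (edgeR, adjusted p = 0.0391), and Eif1b was denser in 3 of 4 libraries. The call was lost without replicate 1 (1.20, adjusted p = 0.171), without replicate 2 (1.32, adjusted p = 0.154), without replicate 3 (1.56, adjusted p = 0.0796) and with no count filter (1.53, adjusted p = 0.0546).

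**Figure D4:**
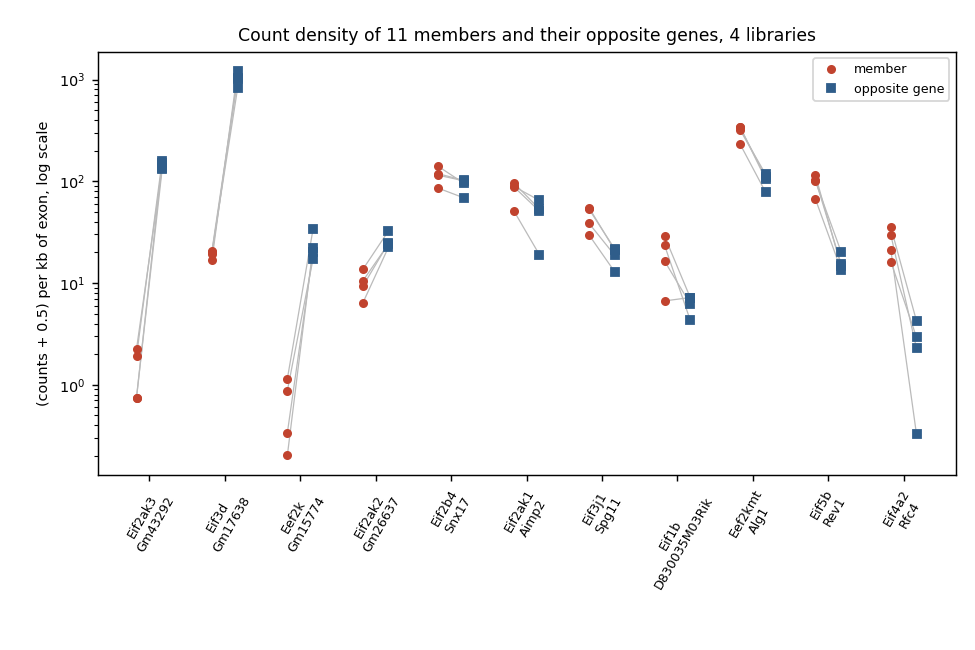
Count density, as (counts + 0.5) per kb of exon on a log axis, of 11 members (circles) and their opposite genes (squares), with lines joining both genes of a library, in order of the fitted log2 difference. Eif2ak3, Eif3d, Eef2k and Eif2ak2 lie below their opposite gene in all 4 libraries, and Eif5b and Eif4a2 lie above theirs in all 4.

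The 2 pairs not tested held few counts. Eif6 had 10, 15, 7 and 5 counts and its opposite gene Gm16098 had none. Eef1akmt3 had none and Mettl1, a tRNA methyltransferase, had 13 in all. A further 4 members share 9 to 82 exon bases with an opposite gene and were fitted with overlaps of any length. Eif2d had 2364, 2280, 2486 and 1353 counts, against 118, 115, 111 and 46 of Rassf5, an adaptor of Rap1 signalling in lymphocytes, or 3.60 on the log2 density scale (edgeR, adjusted p = 9.83e-11). Both genes share 78 exon bases, yet 46.6% of the Eif2d exon bases lie within the bounds of Rassf5, in its exons and introns. Eef1b2 was denser than Ndufs1, a complex I subunit (4.09, adjusted p = 4.06e-08). Eif3m, an eIF3 subunit within Ccdc73, was less dense than that gene (-2.62, adjusted p = 2.74e-06). Eif2a and Serp1 were not called apart (-0.36, edgeR adjusted p = 0.525).

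Libraries differed in the balance between members with and without exon overlap. Members without it had 0.604, 0.872, 0.636 and 0.714 times the counts of those with it in replicates 1 to 4. Replicate 2 was highest, as it was for the other protein-coding genes, where the ratio was 0.197, 0.276, 0.220 and 0.211. Replicate 2 was also the library with the largest share of CT010467.1, and the part of that share was not tested. Without Eef1a1 and Eif2d the member ratio was 0.590, 0.817, 0.653 and 0.678. Among members with at least 40 counts, the highest CPM was in replicate 2 for 15 of 31 genes without exon overlap. It was in replicate 3 for 7 of 13 with overlap. The same libraries were highest over all protein-coding genes. Those with exon overlap held 43.3, 37.8, 44.5 and 40.2% of the counts in replicates 1 to 4, and those without 8.63, 10.6, 9.94 and 8.63%. The pattern is therefore not particular to the members. Eef1a1 had 1475, 2193, 1523 and 1049 counts and Eef2 356, 580, 435 and 250, both also highest in replicate 2 as CPM.

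**Figure D5:**
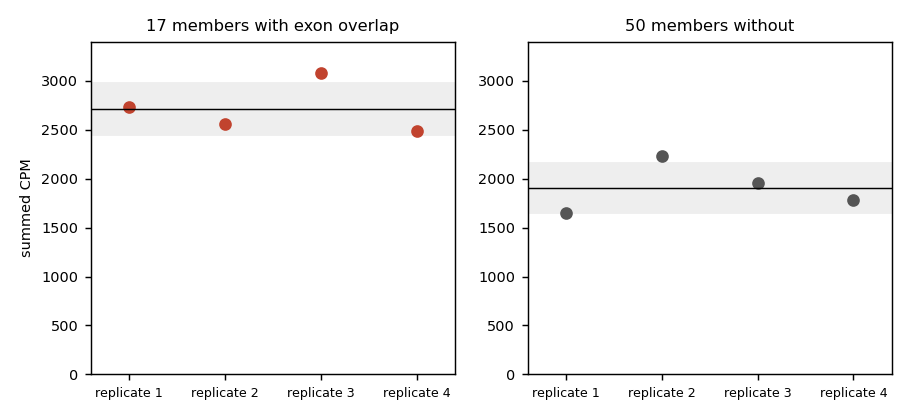
Summed CPM of the 17 members with opposite-strand exon overlap (left) and of the 50 members without (right), 1 point per library, with the mean as a line and 1 SD as a band. The left panel is highest in replicate 3 and the right panel in replicate 2, as are the sums over all protein-coding genes of each kind.

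No member was called more variable between libraries than the trend for its count level. The fit called 16 of 5755 genes (0.278%) as more variable than the trend, and 0 of 37 members (edgeR). At an unadjusted p under 0.05 the edgeR fit marked 285 of all genes and 1 member, Eif4a2. Its adjusted p was 0.987 (edgeR). Eif4a2 had 11.2 TPM in replicate 1 and 21.9 to 23.7 TPM in the others. With DESeq2 size factors and with no count filter the number of members called was also 0.

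Paralogs were compared as ratios of TPM within each library. Of 14 ratios 9 had 1 sign in all 4 libraries, each with p = 0.12 in an exact two-sided permutation of signs (adjusted p = 0.194). No smaller p is possible with 4 libraries, so none could pass 0.05. Eef1a1 was at least 1740-fold higher than Eef1a2, which had 0 counts and was set to 3 over the group. Eif5a was 198-fold higher than Eif5a2 (95% counting interval 84.4 to 614), a gene with 0, 0, 1 and 4 counts. Without replicate 4 the mean log2 ratio of TPM + 0.1 was 8.09, against 7.45 with it. Eif3j1 was 418-fold higher than Eif3j2, with 1 count (74.8 to 16500). Most of the transcript sequence of Eif3j2 is also found in Eif3j1, as given below. How fragments that match both genes were treated is not given, so this fold and its interval need not measure the paralogs. Eif3j1 shares exon bases with an opposite-strand gene, and Eif3j2 does not. Eif2ak1 was 61.3-fold higher than Eif2ak3 (43.3 to 90.0) and Eif2ak2 9.16-fold higher than Eif2ak4 (6.29 to 13.8). Both upper kinases and Eif2ak3 overlap opposite-strand exons. Eif4a1 had 0.530 times the density of Eif4a2 (0.453 to 0.619), and was lower in all 4 libraries. Eif4a2 shares exon bases with an opposite-strand gene and Eif4a1 does not. On its own strand Eif4a2 shares 9.63% of its exon bases with 6 genes, and Eif4a1 6.62% with 2. Eif4g1 was 1.43-fold higher than Eif4g3 (1.24 to 1.64). All counting intervals here pool the counts of the 4 libraries and leave out the spread between them. By library the log2 ratio of Eif4g1 to Eif4g3 was 0.43, 0.42, 0.22 and 1.28 in replicates 1 to 4. Its mean was 0.35 without replicate 4, against 0.59 with all libraries. Eif4ebp1, with 3 counts, had 0.0613 times the density of Eif4ebp2 (0.0125 to 0.183), which was 8.30-fold higher than Eif4ebp3 (2.25 to 69.2). Both counts of Eif4ebp3 were in replicate 3. The mean log2 ratio of Eif4ebp2 to Eif4ebp3 was 4.98 without replicate 3 and 3.41 without replicate 2, against 4.05 with all libraries. The ratios of Eif1 to Eif1b, Eif1a to Eif1ax, Eif4e to Eif4e2, Eif4e to Eif4e3 and Eif4g1 to Eif4g2 did not keep 1 sign.

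Near-identical copies make some of these values uncertain. Of the 50-base words of its transcripts, Eif3j2 shares 91.9% with other genes, Eef1g 44.2%, Eef1a1 39.4%, with 18 pseudogenes among them, Eif3j1 36.9%, Eif2s3x 34.6% and Eif4a1 28.4%. In 46 of 67 members the share was under 5%. Eif3j1 alone holds 90.8% of the words of Eif3j2, and Eif3j2 holds 36.6% of those of Eif3j1. Eif4ebp3 shares 67.3% of its exon bases with Ankhd1 on its own strand. How fragments that match several genes were treated is not given in the sources used here.

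Of 30 other listed genes of the pathway 29 were found and 21 were detected (72.4%), beside 34.0% of all protein-coding genes. Tpt1, a translation-linked oligopyrimidine mRNA, had 239 ± 37.0 TPM (SD, n = 4), Pdcd4, an inhibitor of eIF4A, 33.2 ± 6.88 and Pabpc1, the poly(A)-binding protein, 26.0 ± 5.76 TPM. Of the 8 with a tested pair, the pathway gene was denser in 1 and the opposite gene in 7, beside 29.4% and 62.2% of all 2790 protein-coding genes. Only Wdr83, Bbip1 and Rnft1 among these opposite genes are protein-coding. In the background the opposite gene was denser in 45.6% where it was protein-coding and in 85.1% where it was not. The denser pathway gene was Dph5, which acts in the diphthamide modification of eEF2, at 3.51 over A930005H10Rik (edgeR, adjusted p = 1.29e-08). Dhps, which starts the hypusine modification of eIF5A, was -2.40 against Wdr83 (edgeR, adjusted p = 3.61e-08). Mknk1, an eIF4E kinase, was -10.44 against Gm29434, Hbs1l, of ribosome rescue, -8.64 against 4930455C13Rik, and Ppp1r15b, of the eIF2 alpha phosphatase, -5.60 against Gm26616. Gspt1, a release factor, was -5.24 against 2610020C07Rik, Pdcd4 -4.59 against Bbip1 and Rps6kb1, the S6 kinase, -1.20 against Rnft1, all on the log2 density scale.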

How the data were processed

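Gene tables of 4 libraries of 1 group were used. The authors deposited raw counts of fragments per gene and an exon length per gene. Per the file headers the counts were made with featureCounts 1.4.6-p4 over exons of GENCODE mouse release 13 on mm10, from sorted STAR alignments, with strand setting 1, read pairs and both ends aligned. The sources used here do not give the library kit or its strand, and the counts carry no normalization per the file headers.

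Symbols were matched by gene identifier for 50376 of 50600 genes, and types and transcripts came from GENCODE release 21. TPM was computed with pandas 2.3.3 (Python 3.11.15) from counts and exon lengths, and log2 levels used 0.1 TPM. Pairs were opposite-strand genes sharing at least 100 exon bases. They were fitted with edgeR 4.0.16 (R 4.3.3) quasi-likelihood tests, 8 columns a pair (4 libraries by 2 genes), with library as a term, offsets for library total and exon length, and Benjamini-Hochberg adjustment over all pairs at 0.05. The block pairs both genes within a library, because they were counted in the same library. DESeq2 1.42.0 was an alternative, as were other filters, overlaps and scalings and leaving out each library. Fits were tested on simulated counts whose spread between libraries was set in advance and not taken from these libraries. No library was a copy of another (chi-square 6.29 to 24.8 per degree of freedom).

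The members and all lists were chosen with earlier results of these data known. Named genes were members with an opposite gene and that gene, the 10 highest and 5 lowest members, members called variable, paralog pairs and pathway genes with an opposite gene. Other members were named by role after their values were seen. There was no second group, so no comparison of conditions was made.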

Additional observations from a re-analysis of the deposited data

Results flagged for a closer look

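In 3 members 1 library stood apart from the other three in TPM, by a gap to the nearest library that exceeded the 95% critical value of its share of the whole range (Dixon). This was 3 of 62 values examined (4.84%), and chance gives about 1 in 20. The gap was 0.854 of the range for Eif4a2, low in replicate 1 at 11.2 TPM, and 0.872 for Eif5, low in the same library at 10.1 TPM. It was 0.928 for Eif2s1, high in replicate 3 at 5.57 TPM.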

How the results depend on the processing

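The calls among members were 6 and 4 (member and opposite gene denser) with DESeq2 and with no replicate block. Over all protein-coding genes these fits gave 820 and 1743, and 837 and 1756. No direction reversed. Without single libraries the calls were 5 to 7 and 4. With a mean of at least 50 counts the median log2 difference was 0.59, over 10 pairs. With at least 50% of the exon bases shared, the background was 117 and 408 of 566 genes, and no member pair was left. A limit of 5 TPM left 33 members detected. The median member level, 2.24 on the log2(TPM + 0.1) scale, was 2.51 with 1 TPM added, 1.66 with TMM-scaled CPM per kb and 2.53 over members with at least 1 count. The cause of these shifts was not tested beyond what each setting leaves out. Low counts limit what can be said of Eif1b and Eif6, and of the size of the difference for Eef2k, Eif2ak3 and Eif4a2. In all, Eef2k had 17 counts, Eif2ak3 had 32 and Rfc4, opposite Eif4a2, had 13.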
